A study of Mus musculus with 6 samples.

Results

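The members described here are 8 transcription factor genes of the endoderm: the SOX factors Sox17 and Sox7, the GATA factors Gata4 and Gata6, the forkhead factors Foxa1 and Foxa3, the nuclear receptor gene Hnf4a and the homeobox gene Hhex. They were found by the gene symbol that the array's platform annotation gives to each probe. The 8 genes are among 7774 named genes in the deposited value table and have 10 of its 11097 probes, with 2 probes each for Sox17 and Sox7 and 1 for each of the other 6 genes.

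Endoderm is laid down more than once in the mouse embryo, first as the primitive endoderm that gives the visceral and parietal endoderm of the yolk sacs, then as the definitive endoderm that gives the gut and its glands. GATA6, GATA4, SOX17 and SOX7 act in the primitive endoderm and its descendants, where they switch on basement membrane genes, and SOX17 is also needed for the definitive gut endoderm. The FOXA proteins open chromatin at gut and liver genes, HNF4A drives genes of plasma proteins and lipid transport in visceral endoderm and liver, and HHEX marks the anterior endoderm and is needed for liver and thyroid buds. Sox17, Sox7 and Hhex are known in the endothelium as well, and HHEX in blood progenitors.

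Every group derived from mouse embryonic stem cells (strain R1 in the labels) that carried a GFP construct for Sox17. The cells were turned towards definitive endoderm with Activin A and Wnt3A over 6 days and GFP-positive cells were sorted. P0 cells were unpassaged, with gelatin as the culture condition, and gave their RNA directly. The other groups were passaged 6 times in co-culture with mesenchyme 1 or with mesenchyme 2, which are mouse mesenchymes whose tissue of origin the labels do not name. The labels' extraction protocol has GFP-positive cells isolated by sorting before RNA was taken, so the transcript of 1 member, Sox17, belongs to the gene behind the sort in all 3 groups. Each group had 2 arrays, described by the submitters as technical duplicates, so the p-values below measure the spread between arrays and not between cultures; how many cultures a group holds is not stated.

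The values are the authors' normalized intensities on 1-colour Illumina bead arrays, on a linear scale. Array medians lay between 127.6 and 135.5, lower quartiles between 48.0 and 49.3, and the lowest value of any probe between 7.49 and 8.66. Log2 values correlated across probes at 0.9934 to 0.9939 within groups and at 0.8748 to 0.9596 between them, and no array stood apart from its duplicate. Duplicates differed most at low intensity, with a median SD of 0.206 on the log2 scale in the dimmest quartile of probes and 0.0768 in the brightest quartile. Detection calls were not used, and dim probes may therefore be near background. A difference is a log2 value ± the standard error of the limma fit over all 11097 probes, and it passed when its Benjamini-Hochberg adjusted p was under 0.05 and the change at least 2-fold. Of 21 genes listed for definitive endoderm and the primitive streak, 11 had a named probe in the analysed table, and Foxa2, Cxcr4, Gsc, Mixl1 and Cer1 were among those without one, so the endoderm label of the cells was checked only in part. In such bulk samples, fewer cells of a type and less RNA per cell cannot be told apart.

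Between mesenchyme 2 and P0, 8 of the 10 member probes rose and none fell, where 9.66% of all probes rose, 8.65% fell and 18.3% passed in either direction. These 8 probes belong to Sox17, Sox7, Gata4, Gata6, Foxa3 and Hnf4a. The members were chosen with earlier results of these data known, so their counts are no independent support. How probes were selected for the table is not stated. The Gata4 probe (8.26 and 15.8 in P0) and the first Sox7 probe (12.1 and 10.2) may be there only through their signal on mesenchyme 2. Between mesenchyme 1 and P0, 2 of 10 passed: Gata6 rose and Foxa1 fell, against 3.27% of all probes that rose, 2.75% that fell and 6.02% that did either. Between the 2 mesenchymes, the same number, 8 of 10, was higher on mesenchyme 2, against 13.5% of all probes that were higher and 12.3% that were lower there (25.8% in either direction). The median difference of the member probes was -0.14 in the comparison of mesenchyme 1 with P0, 2.33 in that of mesenchyme 2 with P0 and 2.30 between the mesenchymes, beside -0.0145, 0.00735 and -0.00825 over all probes. The arrays of the groups compared did not overlap for 7, 9 and 10 of the 10 member probes in these comparisons, but the same was true of 75.2%, 82.4% and 84.8% of all probes. On adjusted p alone, with no fold limit, 6, 9 and 9 of the 10 passed, against 46.1%, 62.7% and 68.6% of all probes. The comparisons against P0 share the P0 arrays.

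**Figure D1:**
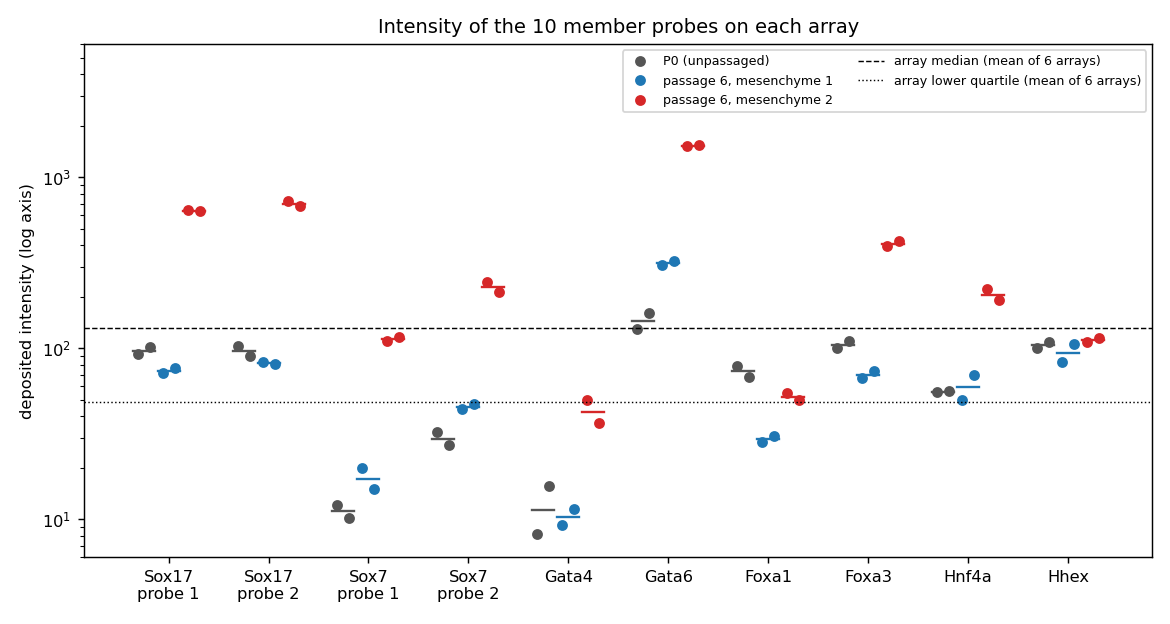
Deposited intensity (log axis) of the 10 member probes, with a point for each of the 2 arrays per group and a line at their geometric mean; the dashed and dotted lines are the array median and lower quartile averaged over the 6 arrays. The mesenchyme 2 points stand apart above the others for Sox17, Sox7, Gata4, Gata6, Foxa3 and Hnf4a, Foxa1 is lowest on mesenchyme 1, and the Hhex points lie between 83.0 and 115.5 in all groups.

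Sox17 encodes an HMG-box factor of the endoderm and is the gene of the sorted reporter. Its first probe read 92.7 and 101.6 on the P0 arrays, 71.6 and 76.8 on the mesenchyme 1 arrays, and 638.6 and 630.3 on the mesenchyme 2 arrays. Its second probe read 102.9 and 90.6 in P0, 83.2 and 80.5 on mesenchyme 1, and 722.4 and 679.9 on mesenchyme 2. On both probes the mesenchyme 2 arrays were high, and the P0 and mesenchyme 1 arrays were close to each other, the latter always the lower. Mesenchyme 2 exceeded P0 by 2.71 ± 0.0961 on the first probe (6.54-fold, 95% confidence interval 5.58 to 7.66, adjusted p = 5.03e-06) and by 2.86 ± 0.102 on the second (7.26-fold, 6.13 to 8.59). Against mesenchyme 1 the differences were 3.10 ± 0.0961 and 3.10 ± 0.102. Between mesenchyme 1 and P0 the probes differed by -0.39 ± 0.0961 (adjusted p = 0.0168) and -0.24 ± 0.102 (adjusted p = 0.0965), and neither reached 2-fold. The probes thus gave differences within 0.15 of each other, with a combined standard error of 0.14. That error treats the probes as independent, though they were read on the same arrays.

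Sox7 encodes a SOX factor of the same subgroup as SOX17, known from the parietal endoderm and the endothelium. Its first probe read 12.1 and 10.2 in P0, 20.1 and 15.0 on mesenchyme 1, and 110.9 and 116.1 on mesenchyme 2. Its second read 32.3 and 27.1 in P0, 44.4 and 47.0 on mesenchyme 1, and 243.7 and 214.7 on mesenchyme 2. The groups stood in the same order on both probes, P0 below mesenchyme 1 below mesenchyme 2, with no overlap. Mesenchyme 2 exceeded P0 by 3.35 ± 0.159 on the first probe and 2.95 ± 0.122 on the second (adjusted p = 1.29e-05 and 8.30e-06), and mesenchyme 1 by 2.71 ± 0.159 and 2.32 ± 0.122. The step from P0 to mesenchyme 1 was 0.64 ± 0.159 and 0.63 ± 0.122, 1.56-fold and 1.54-fold, which passed on adjusted p (0.0172 and 0.00724) but not on the 2-fold limit. Unlike Sox17, Sox7 was thus not lower on mesenchyme 1 than in P0 on either probe. The Sox7 probes lay further apart than those of Sox17 for mesenchyme 2. They differed by 0.40 against P0 and by 0.39 against mesenchyme 1, with a combined standard error of 0.20 that again treats them as independent. The size of the rise rests on dim P0 signals, the first probe being brighter than 1.19% of the table there and the second than 13.9%: with 50 added to every intensity the 10.2-fold and 7.73-fold rises stood at 2.67-fold and 3.50-fold, and both still passed.

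Gata6 encodes a zinc finger factor that drives the primitive endoderm fate. Its probe read 129.6 and 160.6 in P0, 308.7 and 321.8 on mesenchyme 1, and 1514 and 1541 on mesenchyme 2. It rose on both mesenchymes and the groups did not overlap. On mesenchyme 1 it was 2.18-fold above P0 (1.13 ± 0.121, adjusted p = 0.00103) and on mesenchyme 2 10.6-fold (3.40 ± 0.121, 95% confidence interval 8.67 to 12.9, adjusted p = 5.03e-06). Mesenchyme 2 exceeded mesenchyme 1 by 2.28 ± 0.121 (4.85-fold, adjusted p = 1.20e-05). Among all probes, 37 had a larger rise from P0 to mesenchyme 2, and 244 had a larger one from P0 to mesenchyme 1. The smaller rise lies near the limit: without P0 replicate 1 it stood at 0.97, with 50 added to every intensity at 0.91, and when tested against a 2-fold change it did not pass.

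Gata4, a close relative of Gata6, has roles in extraembryonic endoderm, heart and foregut, and its probe was dim in every group. Its probe read 8.26 and 15.8 in P0, 9.34 and 11.6 on mesenchyme 1, and 49.6 and 36.5 on mesenchyme 2. The P0 and mesenchyme 1 arrays overlapped and lay close to the lowest values of the table, above 1.99% and 0.766% of its probes. The mesenchyme 2 arrays were higher than all 4 others, but their mean of 42.5 was still under the lower quartile of the arrays. Gata4 rose by 1.90 ± 0.307 on mesenchyme 2 (3.72-fold, 95% confidence interval 2.24 to 6.18, adjusted p = 0.00179) and stood 2.03 ± 0.307 above mesenchyme 1 (adjusted p = 0.00104). Between mesenchyme 1 and P0 it differed by -0.14 ± 0.307, with an interval of -0.87 to 0.60 on the log2 scale, which is wide because the duplicate P0 arrays differed so much. With 50 added to every intensity the rise stood at 1.50-fold and the difference from mesenchyme 1 at 1.54-fold, and neither passed; the rise did not pass either when tested against a 2-fold change (adjusted p = 0.128).

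**Figure D2:**
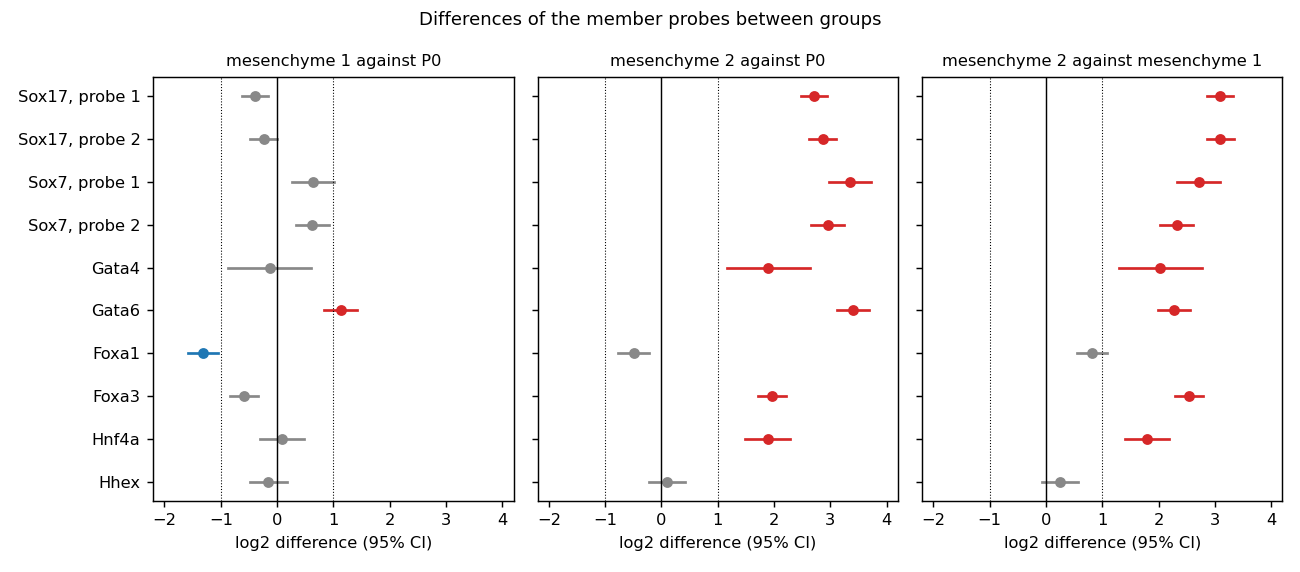
Log2 difference of each member probe in the 3 comparisons, with its 95% confidence interval from the limma fit; red passed as higher, blue as lower, grey did not pass, and dotted lines mark a 2-fold change. Gata6 and Foxa1 are the coloured probes in the first panel, and 8 of 10 probes are red in each of the others.

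The FOXA genes present, Foxa1 and Foxa3, moved in different ways; the remaining family member, Foxa2, was not among the probes analysed here. Foxa3, best known from liver and gut epithelium, read 99.9 and 110.5 in P0, 66.9 and 73.2 on mesenchyme 1, and 395.5 and 422.5 on mesenchyme 2. The groups did not overlap, with mesenchyme 2 high and mesenchyme 1 lowest. Foxa3 rose by 1.96 ± 0.103 on mesenchyme 2 (3.89-fold, 95% confidence interval 3.28 to 4.62, adjusted p = 1.87e-05) and was 5.84-fold above mesenchyme 1 (2.55 ± 0.103, adjusted p = 5.09e-06). On mesenchyme 1 it was 1.50-fold below P0 (-0.59 ± 0.103, adjusted p = 0.00509), short of the 2-fold limit.

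Foxa1, a pioneer factor of gut, lung and liver epithelium, was the only member probe that fell. It read 79.2 and 68.3 in P0, 28.4 and 30.6 on mesenchyme 1, and 54.6 and 49.8 on mesenchyme 2. The groups did not overlap, and mesenchyme 2 lay between the others. On mesenchyme 1 it fell by 1.32 ± 0.112 on the log2 scale, 2.49-fold (adjusted p = 0.000488), and 121 of the 11097 probes showed a larger fall. On mesenchyme 2 the difference from P0 was -0.50 ± 0.112 (1.41-fold lower, adjusted p = 0.00782), and mesenchyme 2 exceeded mesenchyme 1 by 0.82 ± 0.112 (1.77-fold, adjusted p = 0.000644); both stayed under 2-fold. The fall was 1.97-fold with 16 added and 1.55-fold with 50 added to every intensity, where it did not pass, and it did not pass when tested against a 2-fold change (adjusted p = 0.576).

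Hnf4a encodes the nuclear receptor that drives plasma protein genes in visceral endoderm and liver. Its probe read 55.2 and 56.3 in P0, 50.2 and 70.1 on mesenchyme 1, and 221.1 and 192.0 on mesenchyme 2. The P0 arrays lay within the range of the mesenchyme 1 arrays, and the mesenchyme 2 arrays were above all of these. Hnf4a rose by 1.89 ± 0.166 on mesenchyme 2 (3.70-fold, 95% confidence interval 2.81 to 4.86, adjusted p = 0.000129), and mesenchyme 2 exceeded mesenchyme 1 by 1.80 ± 0.166 (3.47-fold, adjusted p = 0.000105). Between mesenchyme 1 and P0 the difference was 0.0895 ± 0.166, with an interval of -0.31 to 0.49 (adjusted p = 0.685). The rise stood at 2.42-fold with 50 added to every intensity.

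Hhex, a homeobox gene of the anterior endoderm, passed in no comparison. It read 100.1 and 108.8 in P0, 83.0 and 106.0 on mesenchyme 1, and 108.2 and 115.5 on mesenchyme 2. The values of all 6 arrays lay within a narrow range, and the P0 arrays overlapped those of both mesenchymes. The difference of mesenchyme 2 from P0 was 0.0993 ± 0.135 (interval -0.22 to 0.42, adjusted p = 0.545), of mesenchyme 1 from P0 -0.15 ± 0.135 (interval -0.48 to 0.17, adjusted p = 0.383), and of mesenchyme 2 from mesenchyme 1 0.25 ± 0.135 (interval -0.0688 to 0.57, adjusted p = 0.135). A change of 2-fold either way lies outside these intervals, which hold for the spread between arrays.

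The 250 bases before the transcription start were read from RefSeq (GRCm38.p6) for Foxa1, Foxa3, Hnf4a and Hhex, 4 of the 8 genes. Sox17, Sox7, Gata4 and Gata6 had no promoter entry in the set used, so no sequence of theirs was searched. The windows of Foxa1, Foxa3 and of both Hnf4a starts are shown, since Foxa3 and Hnf4a rose together on mesenchyme 2 while Foxa1 did not. Capitals mark letters that match one of the motifs searched on both strands for the members' own families: for GATA factors the letters AGATAA with the variant TGATAA, further AGATAG, and lastly TGATAG; for SOX factors the letters ACAATG or else ACAAAG; for FOXA factors the letters TGTTTAC, further TATTTAC, and lastly TGTTTGC; and for HNF4 the letters CAAAGTC or else CAAAGGT. Foxa1 lies at chr12:57546112-57546361 (minus strand), Foxa3 at chr7:19023540-19023789 (minus strand), the first Hnf4a start at chr2:163506607-163506856 and the second at chr2:163546905-163547154 (plus strand).
Foxa1: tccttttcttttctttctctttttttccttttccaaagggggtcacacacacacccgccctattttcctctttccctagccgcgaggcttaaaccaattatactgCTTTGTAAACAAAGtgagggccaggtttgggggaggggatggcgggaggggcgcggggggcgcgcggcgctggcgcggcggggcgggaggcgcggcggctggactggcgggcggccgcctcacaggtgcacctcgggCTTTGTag
Foxa3: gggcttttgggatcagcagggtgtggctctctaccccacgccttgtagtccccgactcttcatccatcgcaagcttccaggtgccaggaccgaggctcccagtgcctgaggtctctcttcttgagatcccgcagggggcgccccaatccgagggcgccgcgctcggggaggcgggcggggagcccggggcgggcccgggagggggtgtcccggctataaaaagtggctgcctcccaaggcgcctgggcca
Hnf4a first start: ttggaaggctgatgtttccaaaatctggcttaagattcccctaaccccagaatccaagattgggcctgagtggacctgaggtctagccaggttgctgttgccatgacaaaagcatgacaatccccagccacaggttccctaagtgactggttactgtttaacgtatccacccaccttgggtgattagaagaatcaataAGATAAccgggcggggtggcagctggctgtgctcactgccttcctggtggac
Hnf4a second start: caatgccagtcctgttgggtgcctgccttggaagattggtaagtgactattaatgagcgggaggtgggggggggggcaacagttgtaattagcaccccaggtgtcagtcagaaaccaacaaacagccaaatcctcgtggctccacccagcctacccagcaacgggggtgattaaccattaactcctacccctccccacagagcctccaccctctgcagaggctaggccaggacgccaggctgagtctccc
The Foxa1 window holds 4 matches: a FOXA match (TGTTTAC on the reverse strand) at bases -141 to -135 from the start, which overlaps a SOX match (ACAAAG) on each side, at -145 to -140 and -137 to -132, and a further SOX match at -8 to -3. The first Hnf4a window holds 1 match, a GATA motif (AGATAA) at -52 to -47. The windows of Foxa3, of the second Hnf4a start and of Hhex held none of these letters. Over 32851 RefSeq windows of the same length and position, 26.5% held a GATA match, 25.2% a SOX match, 9.73% a FOXA match and 7.24% an HNF4 match, and 50.4% at least 1 of them, so matches of this kind are common. The arrays measured no binding, and Hnf4a starts were not measured separately.

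The relatives of the members did not move as a family. Of 6 probes for 5 other SOX genes, 2 fell on mesenchyme 2 and none rose: Sox15, at -1.65 ± 0.0872, and Sox12, at -1.34 ± 0.139. On mesenchyme 1, 1 of the 6 rose, a dimmer probe of the pluripotency gene Sox2 (29.4 and 32.2 in P0, 217.0 and 235.8 on mesenchyme 1, 35.7 and 36.5 on mesenchyme 2), named after its values were seen; the brighter Sox2 probe, at 464.5 and 402.7 in P0 and 453.1 and 492.6 on mesenchyme 1, differed by 0.13 ± 0.112. Against P0, Gata2 and Gata3, GATA factors known from blood and trophoblast, fell: by 2.54 ± 0.205 and 2.30 ± 0.304 on mesenchyme 1 and by 1.22 ± 0.205 and 1.04 ± 0.304 on mesenchyme 2. Between the mesenchymes both were higher on mesenchyme 2, as Gata6 was, by 1.32 ± 0.205 and 1.26 ± 0.304. Gata2 read 93.2 and 78.8 in P0, 12.9 and 16.8 on mesenchyme 1, and 30.7 and 43.9 on mesenchyme 2. Zfpm1, which encodes a protein partner of GATA factors, rose on mesenchyme 2 by 1.70 ± 0.0912 and differed on mesenchyme 1 by -0.0256. Among 14 probes for 10 other forkhead genes, 5 rose and 3 fell on mesenchyme 2, with Foxq1 at 3.01 ± 0.101 (from 154.7 to 1244) and Foxp1 at -1.38 ± 0.185, and 1 rose and 1 fell on mesenchyme 1, Foxn3 by 1.22 ± 0.0931 and Foxp4 by 1.11 ± 0.0917. Among 9 probes for 7 other gut and liver regulators, 3 rose on mesenchyme 2, those of Tcf7l2 (2.01 ± 0.147 on the brighter of its 2 probes) and Cebpb (1.48 ± 0.0975), and 2 fell, Nr5a2 by 1.70 ± 0.127 and Nr2f1 by 1.41 ± 0.131. Of these 9, 1 fell on mesenchyme 1, the dimmer probe of Tbx3, by 1.40 on the log2 scale, also named after its values were seen.

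Genes that the members are known to regulate were described next, from lists written out of general knowledge with earlier results of these data known. Their counts are therefore no independent support. Over all probes, 9.66% rose and 8.65% fell on mesenchyme 2, and 3.27% rose and 2.75% fell on mesenchyme 1. Of 16 probes for 14 genes that depend on SOX17 or GATA6 in mouse extraembryonic endoderm, 13 rose and none fell on mesenchyme 2 (median 2.66), led by Hs3st1, a heparan sulfate sulfotransferase, by 3.86 ± 0.0938, the growth factor receptor gene Pdgfra by 3.75 ± 0.101 and the laminin chain Lama1 by 3.56 ± 0.134. Their summed intensity lay between 8748 and 8758 in P0, between 8684 and 8865 on mesenchyme 1 and between 45403 and 45940 on mesenchyme 2. On mesenchyme 1, where Gata6 rose and Sox17 did not, 3 rose and 3 fell (median 0.0417): Amn, a subunit of the cubilin receptor, by 1.76 ± 0.100, Lama1 by 1.23 ± 0.134 and Pdgfra by 1.06 ± 0.101 were higher, and Fgfr2, Nid1 and Sparc were lower by 1.38, 1.07 and 1.07 on the log2 scale. The dimmer Sparc probe differed by only -0.0118. Fgfr2 was dim, at 30.9 and 32.4 in P0 and 11.8 and 12.6 on mesenchyme 1. Of 9 probes for 9 HNF4A target genes, all 9 rose on mesenchyme 2 (median 2.43), with the fetal plasma protein Afp first at 4.04 ± 0.160 (from 25.7 to 423.6), then the apolipoproteins Apoa1 at 3.69 ± 0.158 and Apom at 2.61 ± 0.152. Of the 24 HNF4A targets listed, 15 had no named probe, Alb and Apob among them. In P0, Trf read 8.88 and 16.8, Mttp 17.1 and 16.9, and F2 17.0 and 18.8, near the lowest values. How probes were selected for the table is not given. A target may have a probe there only through its signal on mesenchyme 2, so this count does not speak for the whole list. On mesenchyme 1, where Hnf4a did not pass, Afp rose by 1.32 ± 0.160 and the retinol carrier Rbp4 fell by 1.79 ± 0.113, with a list median of -0.34. Medians over all probes were 0.00735 and -0.0145 for mesenchyme 2 and mesenchyme 1. No test of these lists as sets was made, and whether a member regulates these genes in these cells was not tested.

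**Figure D3:**
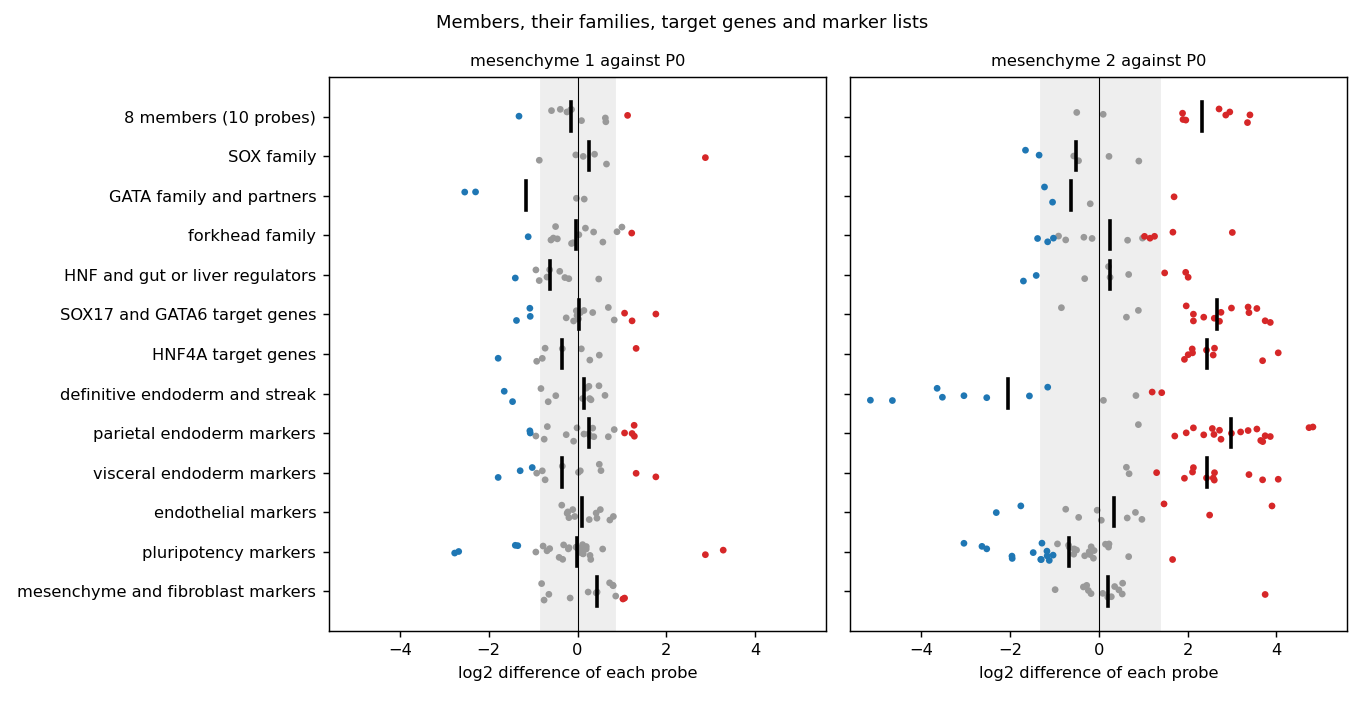
Log2 difference of each probe of the members, their families, target genes and marker lists, for each mesenchyme against P0; red passed as higher, blue as lower, grey did not pass, black bars are list medians, and the grey band holds the central range of all probes from the 5th to the 95th percentile (-0.83 to 0.85 on the left, -1.29 to 1.38 on the right). Vertical scatter has no meaning. On the right the members, both target lists and the parietal and visceral lists have medians of 2.33 or more, while the definitive endoderm and streak list has a median of -2.04.

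Markers of other cell types, from lists also written with earlier results of these data known, moved beside these results. Of 19 parietal endoderm marker probes, 18 rose on mesenchyme 2 and 4 rose and 2 fell on mesenchyme 1; their summed intensity was 6746 to 6803 in P0, 6764 to 6914 on mesenchyme 1 and 41283 to 41831 on mesenchyme 2. Of 13 visceral endoderm probes, 11 rose on mesenchyme 2, and 2 rose and 3 fell on mesenchyme 1, with sums of 5409 to 5433, 3350 to 3404 and 18102 to 19384. The parietal list shares 10 genes with the SOX17 and GATA6 list (of 15 and 14 measured), and the visceral list shares 7 with the HNF4A list (of 12 and 9), so they are not separate evidence. Some parietal probes were dim outside mesenchyme 2. Thbd read 16.1 and 16.9 in P0 and 9.35 and 10.3 on mesenchyme 1, Snai1 20.7 and 17.2, then 10.4 and 9.34, and Pth1r was dim as well. Such probes may be in the table only through their signal on mesenchyme 2, so these counts do not speak for the whole lists. Of 12 definitive endoderm and streak probes, 8 fell and 2 rose on mesenchyme 2, the falls led by Lefty1, Trh and Otx2, at -5.14 ± 0.103, -4.65 ± 0.102 and -3.64 ± 0.130; Krt18 and Cldn6, of the epithelium, rose. On mesenchyme 1, where Foxa1 fell, 2 of the 12 fell and none rose, the epithelial keratin genes Krt18 at -1.65 ± 0.0974 and Krt8 at -1.46 ± 0.0877. Of 30 pluripotency probes for 18 genes, 13 fell on mesenchyme 2 and 1 rose, and on mesenchyme 1 4 fell and 2 rose. Repeat probes of a gene count separately here. Tdgf1 is in this list and in the definitive endoderm and streak list, and both its probes fell on mesenchyme 2 (-3.04 and -2.52). The falls of these lists are thus not fully separate. The 4 falls on mesenchyme 1 were of Klf4 and Tbx3 probes. The rise on mesenchyme 2 was of 1 Klf4 probe, at 1.66, beside -0.17 and -0.20 on its others. The summed pluripotency intensity was 58841 to 59052 in P0, 54789 to 56902 on mesenchyme 1 and 34541 to 35323 on mesenchyme 2. This sum leans on the probes of Dppa5a, which read 12179 and 12106 on the first P0 array and 7992 and 6039 on the first mesenchyme 2 array. Neither probe passed on mesenchyme 2 against P0 (-0.68 and -0.93). Sox17, Sox7 and Hhex are also endothelial genes, and of 12 endothelial probes for 10 genes 3 rose on mesenchyme 2, those of Esam (3.90 ± 0.0979), Flt1 (2.50 ± 0.109) and Tek (1.47 ± 0.130), while Robo4 and Vwf fell by 2.31 and 1.76 on the log2 scale and the brighter probe of Pecam1 stood at 203.0 and 212.4 in P0 and 154.6 and 148.9 on mesenchyme 2. The summed endothelial intensity was 1752 to 1763, 1894 to 1926 and 3275 to 3374, and Cdh5 and Kdr were not among the probes analysed here. Of 13 mesenchyme and fibroblast probes for 10 genes, 2 rose on mesenchyme 1 and 1 on mesenchyme 2, Pdgfra in both, with sums of 6341 to 6822, 9561 to 9992 and 8846 to 9340. Of the 22 genes listed, 12 had no named probe, Col1a1, Col1a2, Col3a1 and Pdgfrb among them, so these cells were checked only in part. Pdgfra is also in the SOX17 and GATA6 list and in the parietal list. The sums lean on Acta2, whose brightest probe alone read 3058 and 3373 in P0. No marker was at 0 on any array, and the part of these cell types in the members' differences was not tested.

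The genes closest to each member over the 6 arrays were found by the Euclidean distance between log2 profiles centred on their own mean, leaving out clones and predicted genes; Hhex, whose group means differed by less than 2-fold, was not searched. Closest to the brighter Sox17 probe were Cobll1 (distance 0.173), the type IV collagen chain Col4a2 (0.331) and N4bp2l1 (0.372). Closest to Sox7 were Prss35 (0.191), the laminin chain Lamb1 (0.195) and the myosin Myo7a (0.355), and to Gata6 Sh3tc2 (0.201), Lama1 (0.298) and the growth hormone receptor Ghr (0.383). Lama1 for example read 400.6 and 469.2 in P0, 1115 and 925.3 on mesenchyme 1, and 4872 and 5370 on mesenchyme 2, the same order as Gata6. Nearest to Foxa3 were Tmem150a (0.164), the receptor gene Tnfrsf12a (0.184) and the complement regulator Cd55 (0.186), and to Hnf4a Tlcd5 (0.195), Ppfibp2 (0.303) and Ankrd12 (0.333). Foxa1 lay nearest to Nabp2 (0.256), the growth factor Pdgfa (0.282) and the myosin light chain Myl4 (0.299), all lowest on mesenchyme 1. Nearest to Gata4 were Plekha6 (0.308), the protease Ctsc (0.504) and Otx1 (0.536). Some of these genes were near the lowest values outside mesenchyme 2. Myo7a had means of 8.07 in P0 and 11.2 on mesenchyme 1, N4bp2l1 of 12.7 and 10.9, and Plekha6, Otx1 and Ankrd12 were similarly dim. Their likeness may rest mainly on the high mesenchyme 2 arrays. All are likenesses over 3 groups of technical duplicates and describe no shared control.

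**Figure D4:**
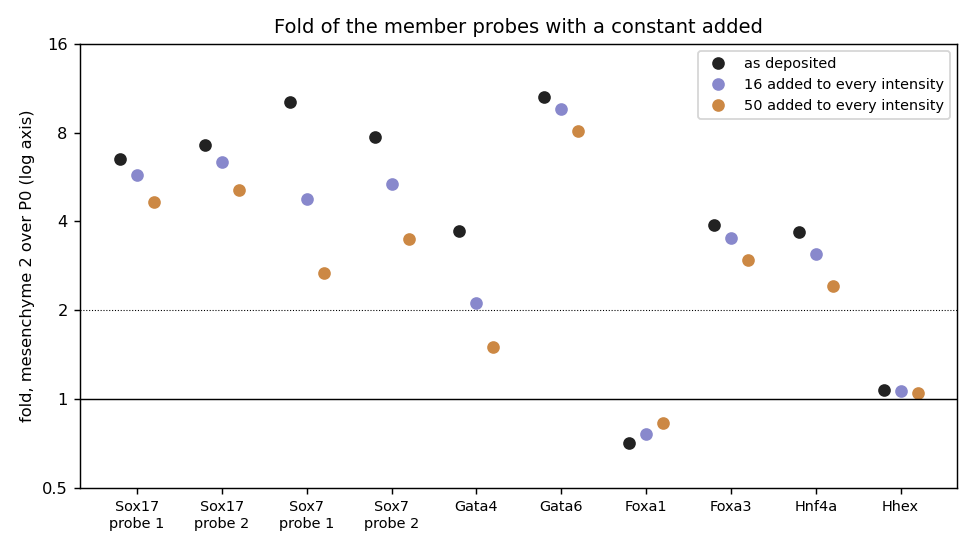
Fold of each member probe on mesenchyme 2 over P0 (log axis) as deposited and with 16 or 50 added to every intensity; the dotted line is 2-fold. Every fold moves towards 1 as the constant grows, most for the dim probes of Sox7 (first probe 10.2, 4.77 and 2.67) and Gata4 (3.72, 2.11 and 1.50) and little for Gata6 (10.6, 9.62 and 8.11).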

How the data were processed

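The deposited value table of 6 arrays was used. Its values are intensities that the authors normalized, on a linear scale; the submitters' processing notes list BeadStudio, with neither version nor role, and how background, normalization and probe selection were handled is not given in the sources used here. A scanner table of 12 columns was not used, because its column names match no sample label. Gene names come from the platform annotation: 10475 probes have 1 symbol and 622 none.

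On the log2 scale, a limma model (version 3.58.1, in R 4.3.3) with a mean for each group was fitted to all 6 arrays and every probe, with no filter; it left 3 residual degrees of freedom, with 3.70 prior ones. Two-sided p-values were Benjamini-Hochberg adjusted over the 11097 probes in each comparison. Levels are geometric means over 2 arrays. The script was tested on simulated data. The members and the 12 gene lists were chosen with earlier results of these data known. All member probes are named; of each list up to 3 probes with the largest rise or fall that passed are named, each gene by its brightest probe, or the 2 brightest where none passed, and counts of 5 or fewer may be named in full. Alternatives were constants added before log2, median centring, quantile normalization, 1 probe per gene, an intensity filter, other tests and leaving out each array. The small number of arrays limits the precision.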

Additional observations from a re-analysis of the deposited data

How the results depend on the processing

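Of the 30 differences of member probes (10 probes in 3 comparisons), 17 kept their direction and their side of the threshold under all alternatives that gave a value, among them all those of Sox17, Sox7, Gata6, Foxa3 and Hnf4a on mesenchyme 2. Differences that did not pass changed sign when single arrays were left out: for mesenchyme 1 against P0, Gata4 stood at 0.33 without P0 replicate 2 and at 0.0203 without mesenchyme 1 replicate 1 (lowest of the left-out arrays -0.60), Hhex at 0.0228 without mesenchyme 1 replicate 1 (lowest -0.33), and Hnf4a at -0.15 without mesenchyme 1 replicate 2. The member probes that passed between mesenchyme 1 and P0, 2 as reported, numbered 1 after adding 16 to each intensity, 0 after adding 50, 0 in the test against a 2-fold change, 6 with no fold limit, and 1 to 2 with single arrays left out, the lower count without P0 replicate 1. In the limma fit with 50 added, Gata6 and Foxa1 stood under 2-fold (1.88-fold higher and 1.55-fold lower) at adjusted p of 1.55e-11 and 2.03e-08. For mesenchyme 2 against P0 and against mesenchyme 1 the count was 8 under every left-out array and 6 to 9 under the other alternatives. The count of 6 came with 1 probe per gene and with the intensity filter. Each of these dropped member probes and left 24 of the 30 differences, among which no call changed. Over all probes, mesenchyme 1 against P0 passed 668 probes, and 318, 139, 381, 105 and 5115 with 16 added, 50 added, a mean intensity of at least 50, a test against a 2-fold change and no fold limit (667 to 721 with single arrays left out). Mesenchyme 2 against P0 passed 2032, and 1348, 871, 825 and 6953 with 16 added, 50 added, the test against a 2-fold change and no fold limit (2032 to 2092). Mesenchyme 2 against mesenchyme 1 passed 2863, and 1307, 1453 and 7612 with 50 added, the test against a 2-fold change and no fold limit (2862 to 2905). The causes were not tested, apart from the construction of each setting. Replicate numbers are shared between groups, but deviations of same-numbered arrays correlated at only -0.0153 to 0.00916. This check found no common deviation over all probes, and it cannot show how the arrays were laid out or run. With the replicate number as a block the counts were 668, 2031 and 2861 over all probes. Over the members they were 2, 8 and 8, and no member call changed. Dim signals limit Gata4 and Sox7 most.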

Other observations

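Of the 8 members, 6 rest on 1 probe each, and genes of the lists with 2 probes show how far probes can disagree on these arrays. For mesenchyme 1 against P0, the probes of Sox2 gave 0.13 and 2.88, those of Sparc -1.07 and -0.0118, and those of Tbx3 -0.63 and -1.40, all as log2 differences. For mesenchyme 2 against P0, the same genes gave -0.56 and 0.23 (Sox2), 1.97 and 2.36 (Sparc) and 0.67 and -0.32 (Tbx3), so the probes of Sox2 and Tbx3 differed in sign. In that comparison the probes of Tcf7l2 gave 2.01 and 1.96, and the 3 of Klf4 gave 1.66, -0.17 and -0.20. These genes were chosen after their values were seen.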
